A study of Peromyscus californicus with 17 samples.

Results

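Neutrophils are the short-lived phagocytes that leave the blood first when tissue is injured or infected, and the lung capillaries hold many of them at rest. They are made in the marrow, where each stage of maturation fills a new class of granules, so the genes of granule proteins are read mainly in precursors and the genes of cytosolic calprotectin and of the chemoattractant and growth factor receptors in mature cells. The genes described here are 8 that mark these stages: S100a8 and S100a9, the subunits of calprotectin, Csf3r, the receptor of granulocyte colony-stimulating factor, Cxcr2, the receptor for chemokines that draw neutrophils, Mpo and Elane, enzymes of the primary granules, and Ltf and Camp, the lactoferrin and cathelicidin of the secondary granules. They were taken by symbol from a table of 27786 genes. A row was found for 6 of the 8. S100a9 and Elane had none under those symbols and were not analysed here. The table also lists genes without a name, by locus number, and whether either of them is among these was not determined.

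The samples were lungs of 17 male Peromyscus californicus of stock IS, a monogamous deer mouse that is genetically diverse, aged 12 to 15 months. The bonded group (B, n = 6) lived with a mate for 4 months, the bond-disrupted group (BD, n = 6) was likewise paired for 4 months and sampled on day 7 after removal from the shared cage, and the virgin group (V, n = 5) was kept without a mate in cages of up to 3 animals. Animals that carry the same number are siblings, except that 2 of the virgins are cousins of theirs. Each animal gave 1 RNA-seq library, with a solved depth of 30788496 to 68231985 reads (median 36767099 in B, 46473393 in BD and 43889121 in V), and the alveolar marker Sftpc had a mean of 19872 FPKM. The comparisons ask whether a bond, its loss or life without a mate goes with a different level of these transcripts in the lung.

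FPKM, fragments per kilobase of transcript scaled to library size, should use a gene's own length. In this table the column of each animal had been divided by the length of a gene some rows above, 1 row further up for each next column, so that the values of one gene were not comparable between animals. For S100a8 the dividing lengths ran from 438 to 4737 bases against an own length of 401, and for Csf3r from 107 to 17437 bases against 4716. The reads were solved back from the values, with lengths chosen so that reads came out whole. All 17 values of each of the 6 genes did so, and every level below is the read count over the gene's own length. Lengths were also checked against the medians of the genes they divide. Without that check the same reads came out for 14 of 17 values of S100a8 and 15 of Csf3r. The counts were 16 each for Cxcr2, Mpo and Camp and 17 for Ltf. Across 13325 genes averaging at least 100 reads, the typical (median) SD among the 17 lungs, on the log2(FPKM + 1) scale, stood at 1.36 in the deposited values and at 0.193 once own lengths were used. The check against medians favours a lower spread, so this drop is not independent of how the lengths were solved.

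**Figure D1:**
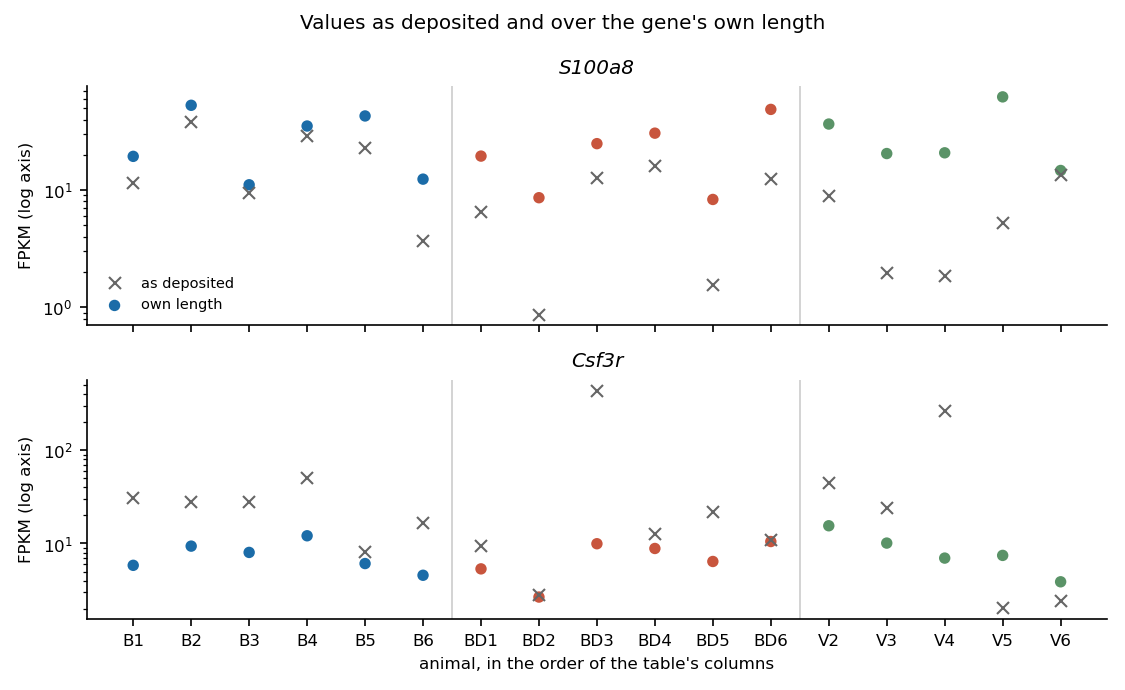
FPKM of S100a8 and Csf3r on a log axis in each animal, in the order of the columns; crosses are the values as deposited and dots the values over the gene's own length, coloured by group. For Csf3r the deposited values ran from 2.02 to 438 and those with the own length from 2.66 to 15.5.

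With own lengths, none of the 5 genes that passed the filter on low values (at least 1 FPKM in at least 1 animal) passed the test for a difference between groups. In bond-disrupted against bonded lungs 0 of the 5 were called at an adjusted p under 0.1 with a 2-fold change, beside 0% of the 14778 genes tested, and 0 of the 5 had an unadjusted p under 0.05, beside 5.84% of all genes. In virgin against bonded lungs these were again 0 of 5 and 0 of 5, beside 0% and 3.65%. In virgin against bond-disrupted lungs they were 0 of 5 and 0 of 5, beside 0% and 4.32%. The count of 0 over all genes came from limma, with 863, 540 and 638 genes at an unadjusted p under 0.05 in the order of the comparisons, and limma's voom on the recovered reads called 0, 1 and 0 genes of 17023. For each of the 6 genes and each pair of groups the values overlapped (18 of 18), as did those of nearly all genes tested, of which 0.264%, 0.501% and 0.244% had groups that did not overlap in the order of the comparisons. The median log2 fold change of the 5 genes was -0.11, 0.12 and 0.23, against 0.0046, 0.0056 and 0.0054 for all genes tested. Comparisons that share a group are not independent of each other. Whole lung was sequenced, so fewer cells of a type and less RNA per cell cannot be told apart.

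S100a8 had the highest level of the 6 genes. In the bonded lungs its FPKM ran from 11.1 (B3) over a median of 27.3 to 52.9 (B2). In the bond-disrupted lungs it ran from 8.32 (BD5) over a median of 22.2 to 48.8 (BD6). The virgin animals V2 to V6 had 36.6, 20.5, 20.8, 62.4 and 14.7. Each group thus held both low and high animals, and the groups overlapped. By the mean V was the highest group, above B (29.0 ± 17.2, SD, n = 6) and BD (23.5 ± 15.2, SD, n = 6), while by the median, at 20.8 FPKM, it was the lowest. The log2 fold change was -0.32 (SE 0.48, 95% interval -1.34 to 0.71) in BD against B, 0.13 (SE 0.51, -0.94 to 1.21) in V against B, and 0.45 (SE 0.51, -0.62 to 1.53) in V against BD. The adjusted p-values from limma were 0.945, 1.00 and 0.947, and the intervals reach past a 2-fold change downward in BD against B and upward in both comparisons of V, so changes of that size and direction are within the error. As deposited, the fold changes of S100a8 were -1.21, -1.43 and -0.22 on the log2 scale, with adjusted p-values from limma of 0.797, 0.623 and 0.980.

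Csf3r, through which granulocyte colony-stimulating factor drives the production and survival of neutrophils, varied less. Its FPKM in B ran from 4.56 (B6) over a median of 7.05 to 12.1 (B4), and in BD from 2.66 (BD2) over 7.63 to 10.5 (BD6). In V it was 15.5, 10.1, 6.97, 7.45 and 3.88 from V2 to V6. The virgin group held both the highest animal of all and the one next to the lowest. The means were 7.67 ± 2.78 (SD, n = 6) in B, 7.28 ± 3.02 (SD, n = 6) in BD and 8.78 ± 4.37 (SD, n = 5) in V. The log2 fold changes were -0.11 (SE 0.31, 95% interval -0.77 to 0.55), 0.12 (SE 0.33, -0.57 to 0.81) and 0.23 (SE 0.33, -0.46 to 0.92) in the same order of comparisons. On this scale of FPKM + 1 the intervals stayed inside a 2-fold change. With voom on the recovered reads the fold changes were -0.12 (SE 0.36), 0.14 (SE 0.37) and 0.26 (SE 0.37), with larger SEs, so the bound is less firm there.

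Cxcr2, which binds the chemokines that call neutrophils out of marrow and blood, was low, with 68 to 258 reads per animal and at least 1 FPKM in 13 of the 17 animals. In B its FPKM ran from 0.893 (B6) over a median of 1.18 to 2.11 (B2). In BD it ran from 0.869 (BD2) over 1.40 to 2.08 (BD4). In V it was 1.53, 1.00, 0.994, 1.45 and 1.08 from V2 to V6. The groups overlapped almost fully, and the means of 1.33, 1.42 and 1.21 FPKM (SD 0.469, 0.425 and 0.257) lay within 1 SD of each other. The log2 fold changes were 0.056 (SE 0.14), -0.062 (SE 0.14) and -0.12 (SE 0.14), on a scale of FPKM + 1 that understates changes of low genes. With voom on the recovered reads, where the constant added is only a fraction of a read, they were 0.16 (SE 0.25), -0.064 (SE 0.27) and -0.22 (SE 0.26).

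The granule genes were low as well. Ltf, the iron-binding protein of secondary granules, had 8 to 342 reads per animal. Its FPKM in B ran from 0.126 (B5) over a median of 0.894 to 3.06 (B4), and in BD from 0.0793 (BD2) over 0.830 to 3.27 (BD6). In V it was 2.66, 1.15, 1.29, 1.43 and 0.836. The spread within B was 24.3-fold and within BD 41.3-fold, while the 5 virgins lay within 3.19-fold. Whether the spread itself differed between groups was not tested. The log2 fold changes of Ltf were -0.11 (SE 0.35), 0.26 (SE 0.37) and 0.37 (SE 0.37), with adjusted p-values from limma of 0.974, 1.00 and 0.947. With voom they were -0.14 (SE 0.83), 0.99 (SE 0.78) and 1.13 (SE 0.79), with adjusted p-values of 0.990, 0.999 and 0.954, so the size for V depends on the scale.

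Camp, the precursor of an antimicrobial peptide stored with lactoferrin, followed the same animals. In B its FPKM ran from 0.206 (B3) over a median of 0.557 to 2.51 (B4). In BD it ran from 0.200 (BD2) over 0.632 to 2.26 (BD6), and in V it was 1.18, 0.588, 0.680, 0.683 and 0.646. B4 and BD6 stood above all other animals, and 4 animals reached 1 FPKM. The log2 fold changes were -0.012 (SE 0.26), 0.0092 (SE 0.28) and 0.021 (SE 0.28), with adjusted p-values from limma of 0.999, 1.00 and 1.000. With voom they were 0.24 (SE 0.62), 0.52 (SE 0.64) and 0.28 (SE 0.62).

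Mpo, the peroxidase of the primary granules that marks the earliest of these stages, stayed under 1 FPKM in every animal and so did not pass the filter. It had 0 to 106 reads, with a median of 24. In B its FPKM ran from 0 (B6) over a median of 0.143 to 0.616 (B4), in BD from 0.0562 (BD2) over 0.228 to 0.959 (BD6), and in V it was 0.113, 0.0919, 0.239, 0.326 and 0.312. In B6 the count of 0 allows up to 3 reads, or 0.0272 FPKM, a floor that covers counting error only and takes reads as independent. Every Mpo count was even, and if both mates of a fragment were counted the floor is higher. Fitted without the filter, its log2 fold changes were 0.11 (SE 0.15), 0.030 (SE 0.15) and -0.078 (SE 0.15) on the FPKM + 1 scale, which compresses values this low. With voom they were 1.28 (SE 0.95), 1.21 (with a slightly larger SE) and -0.071 (SE 0.87), with adjusted p-values of 0.868, 0.999 and 0.999, so changes of more than 2-fold are within the error for this gene.

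**Figure D2:**
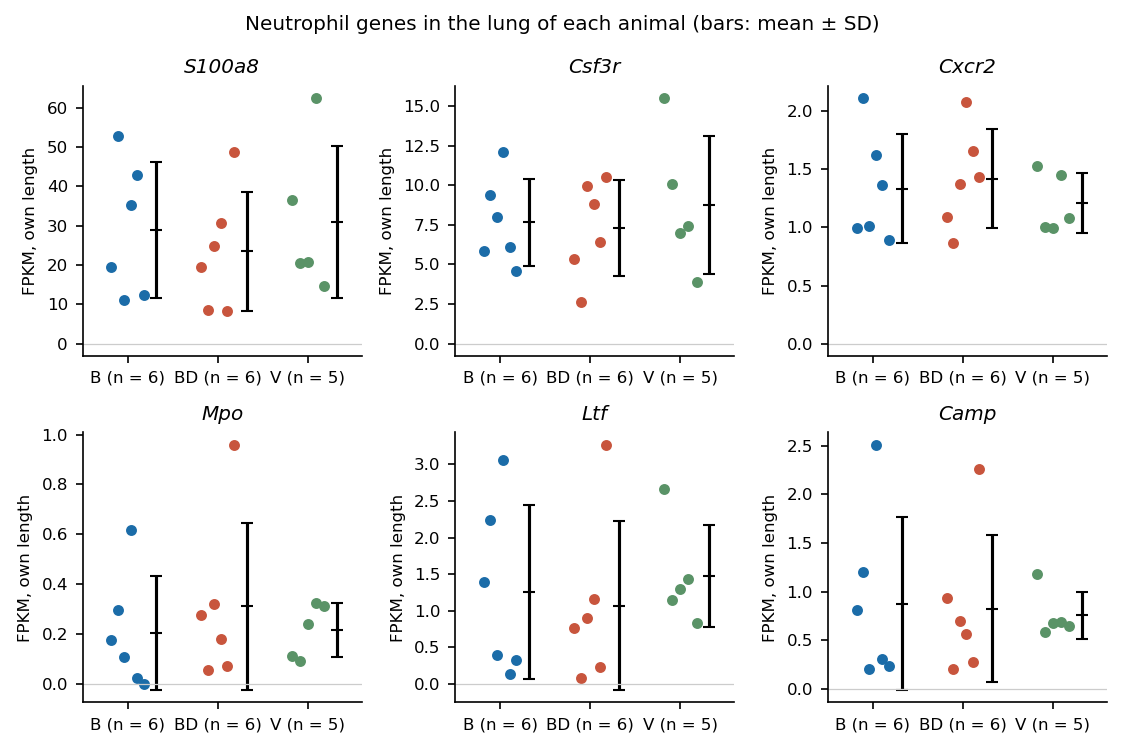
FPKM over the own length of the 6 genes in each animal of the bonded (B), bond-disrupted (BD) and virgin (V) groups; dots are animals and bars the mean ± SD. The groups overlap for every gene, and BD6 stands above the other BD animals for Mpo, Ltf and Camp.

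**Figure D3:**
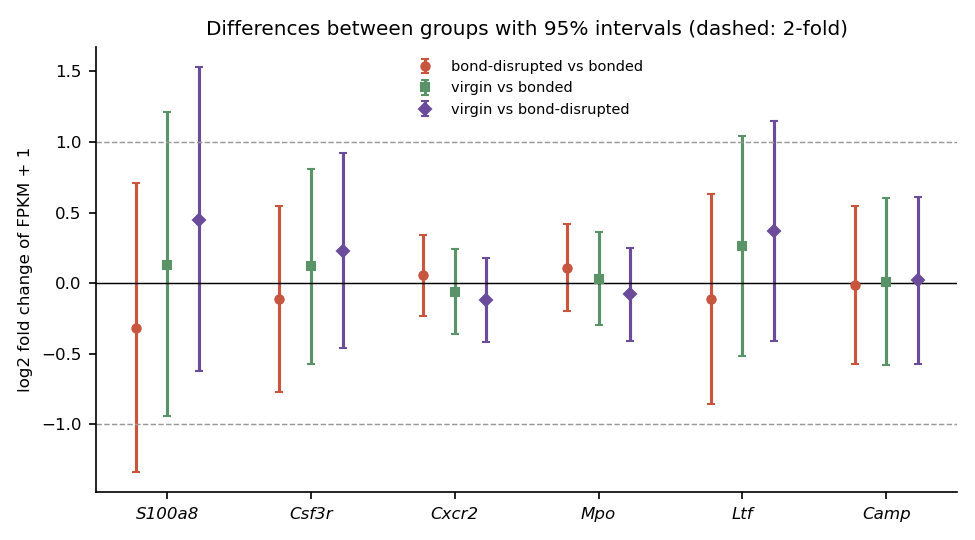
log2 fold change of FPKM + 1 for the 6 genes in the 3 comparisons, with 95% intervals from limma; dashed lines mark a 2-fold change, and Mpo comes from the fit without the filter. All 18 intervals include 0, and those of S100a8 are the widest.

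Per length, the levels ordered as S100a8 (mean 27.6 FPKM), Csf3r (7.86), Cxcr2 (1.33), Ltf (1.25), Camp (0.822) and Mpo (0.245). S100a8 was above Csf3r, Csf3r above Cxcr2 and Camp above Mpo in 17 of 17 animals each, with an adjusted p of 2.54e-05 in two-sided exact permutation tests that flip the sign of each animal's difference, adjusted over the 5 steps of the order. The p before adjustment, 1.53e-05, is the smallest these tests can give. The order tested was taken from these same means, and related animals were taken as independent. Ltf was above Camp in 13 of 17 animals (adjusted p = 0.00332, same exact test). Cxcr2 and Ltf did not differ beyond their spread, with Cxcr2 higher in 10 of 17 animals (adjusted p = 0.261, same exact test).

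The levels varied widely among animals. The SD of log2(FPKM + 1) over the 17 animals was 0.86 for S100a8, higher than for 97.4% of the genes tested, 0.63 for Ltf (94.0%), 0.55 for Csf3r (91.2%), 0.46 for Camp (86.1%) and 0.23 for Cxcr2 (54.6%), with a median of 0.21 over all genes. With group means subtracted the SD of S100a8 was 0.90 and that of Ltf 0.65. The + 1 compresses low genes, so the order of these SDs depends on the scale. On FPKM itself the SD was 97.4% of the mean for Mpo, 80.9% for Camp and 80.4% for Ltf. It was 59.5% for S100a8, 41.1% for Csf3r and 29.1% for Cxcr2. BD2 ranked among the lowest 3 of 17 animals for 6 of the 6 genes and B6 for 4, while BD6 ranked among the highest 3 for 5 genes and B4 for 4. Low and high animals thus came from the same groups.

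**Figure D4:**
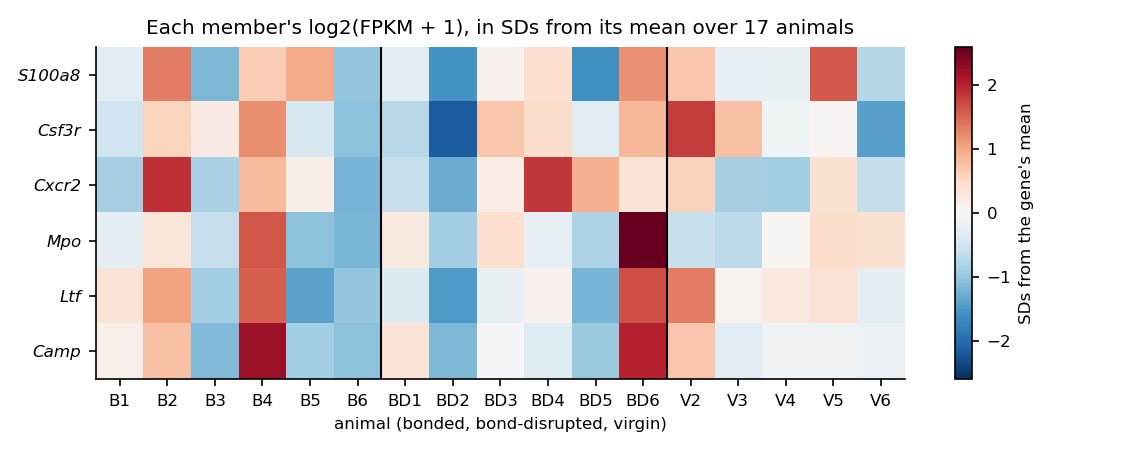
Each gene's log2(FPKM + 1) in each of the 17 animals, in SDs from that gene's mean; red is above and blue below the mean, and black lines part the bonded, bond-disrupted and virgin animals. BD2 and B6 are blue and B4 and BD6 red for each gene.

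The 6 genes varied together across animals. Pearson's r was above 0 in 15 of 15 pairs, from 0.307 (Cxcr2 and Mpo) to 0.916 (Ltf and Camp), with a median of 0.608. In two-sided permutation tests over the 17 animals, 11 of the 15 pairs had an adjusted p under 0.05, by r and likewise by Spearman's rho, and 12 had it after group means were subtracted. Related animals were taken as independent in these tests. Without BD2, the lowest animal by its mean rank over the 6 genes, and BD6, which shared the highest mean rank with B4, 4 of the 15 pairs kept an adjusted p under 0.05, and r ran from 0.248 to 0.886. Leaving out these animals was not planned. Removing animals picked as low and high over the same genes tends to lower r by itself.

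The highest r over all animals were those between granule genes. Ltf and Camp had r = 0.916 (rho = 0.858, adjusted permutation p = 0.000150 for r and 0.000300 for rho), and r = 0.886 without BD2 and BD6, which for this pair were also the animals farthest from the median of Ltf. Mpo and Camp had r = 0.861 (rho = 0.772, adjusted permutation p = 0.000600 and 0.00412), and r = 0.666 without B4 and BD6. Mpo and Ltf had r = 0.743 (rho = 0.733, adjusted permutation p = 0.00145 and 0.00566), and r = 0.562 without the same pair of animals. These 3 pairs and that of Csf3r and Ltf were the 4 that held without BD2 and BD6.

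Other pairs joined a gene of the mature cell to a granule gene, and whether their r differed from those above was not tested. Csf3r and Ltf had r = 0.735 (rho = 0.725, adjusted permutation p = 0.00289 and 0.00566), and r = 0.626 without BD2 and V2. S100a8 had r = 0.690 with Ltf (rho = 0.696, adjusted permutation p = 0.00759 and 0.00774) and 0.626 with Camp (rho = 0.659, adjusted permutation p = 0.0163 and 0.0123), which were 0.688 and 0.691 without B2 and V5 but 0.583 and 0.515 without BD2 and BD6 (adjusted permutation p = 0.0711 and 0.0886). Within the mature cell genes, S100a8 and Csf3r had r = 0.608 (rho = 0.598, adjusted permutation p = 0.0186 and 0.0267), and 0.664 without B2 and V5 but 0.472 without BD2 and BD6 (adjusted permutation p = 0.116). The 4 pairs that missed the threshold were Csf3r with Mpo and Cxcr2 with each granule gene, with adjusted permutation p-values from 0.0848 to 0.234.

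**Figure D5:**
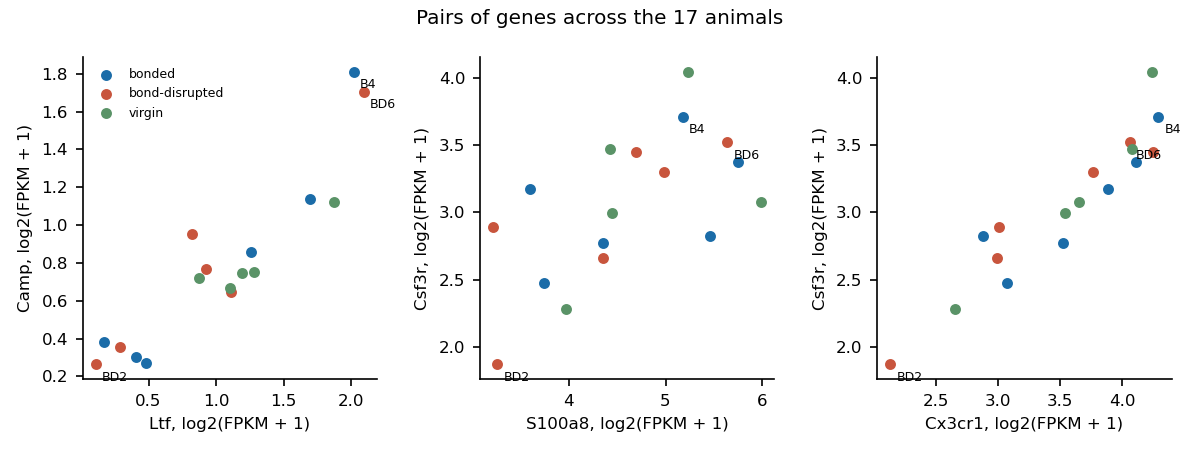
log2(FPKM + 1) of Camp against Ltf, of Csf3r against S100a8 and of Csf3r against Cx3cr1; each dot is 1 animal, coloured by group, with BD2, BD6 and B4 named. Camp follows Ltf (r = 0.916). Csf3r had r = 0.940 with the monocyte gene Cx3cr1, picked as the highest of 12955 genes, and r = 0.608 with S100a8. The difference was not tested.

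The genes most alike in pattern were sought among the 12955 genes that passed the filter on low values and had at least 100 reads on average, by Pearson's r over the 17 animals, as a description. For S100a8 the nearest was LOC128106311 (r = 0.797), a protein-coding gene without a name that is 1 row after it in the table and next to it in RefSeq's assembly ASM782708v3, followed by Fndc1 (r = 0.726) and LOC128105913 (r = 0.717). LOC128106311 ran from 7.74 FPKM in BD5 to 126 in V2, with means of 52.4 ± 40.2 (SD) in B, 23.7 ± 16.8 (SD) in BD and 55.4 ± 44.8 (SD) in V. Its log2 fold change had a 95% interval of -2.30 to 0.30 (SE 0.61) in BD against B and was 1.08 (SE 0.64) in V against BD, with adjusted p-values from limma of 0.878 and 0.947.

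For Csf3r the nearest were Cx3cr1, the fractalkine receptor of monocytes (r = 0.940), Fgr, a Src family kinase of myeloid cells (r = 0.938), and LOC128125690 (r = 0.925). Picked as the top of the search, each of these lay closer to Csf3r than any of the other 5 neutrophil genes did. Of those Ltf was the nearest at r = 0.735, and the difference was not tested. Cx3cr1 ran from 3.38 FPKM in BD2 to 18.6 in B4. For Camp the nearest was Ltf, then Igdcc4 (r = 0.788) and LOC128105427 (r = 0.777). For Ltf they were Igdcc4 (r = 0.845), Nfe2, a transcription factor of red cell and platelet precursors (r = 0.822), and Prr33 (r = 0.819), since Camp itself had under 100 reads on average. The nearest to Cxcr2 were Rarres1 (r = 0.724), Apcdd1l (r = 0.720) and Ptn (r = 0.716), and to Mpo Celsr3 (r = 0.818), Gabbr2 (r = 0.798) and Nrxn2 (r = 0.795), with few reads behind both members.

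Markers of other blood cells varied with Camp. Over 10 marker lists, each the mean of log2(FPKM + 1) of its genes, Camp had r = 0.765 with eosinophil and mast cell genes (rho = 0.730, adjusted permutation p = 0.00340 and 0.0124, 6 of 7 listed genes with a row), rho = 0.735 with red cell genes (r = 0.717 with group means subtracted, adjusted permutation p = 0.0149 for r over all animals and 0.0124 for rho, 5 of 7) and r = 0.620 with platelet genes (rho = 0.574, adjusted permutation p = 0.0487 and 0.0876, 3 of 5). Without B4 and BD6 these r were 0.683, 0.629 and 0.404. S100a8 had r = 0.644 with the eosinophil and mast cell genes (rho = 0.608, adjusted permutation p = 0.0425 and 0.0722) and 0.617 without B2 and V5. The other 16 relations, of both genes with macrophage, monocyte, B cell, T cell, airway, alveolar and cycling genes and of S100a8 with red cell and platelet genes, missed the threshold after adjustment over all 20. With group means subtracted, Camp passed it with monocyte genes (r = 0.591, adjusted permutation p = 0.0470) and had r = 0.580 with macrophage genes (adjusted permutation p = 0.0501), while without B4 and BD6 its r over the remaining animals were 0.407 and 0.174. Without BD2 and BD6, which leaves 15 animals, the relation of Camp with red cell genes kept an adjusted permutation p under 0.05 (r = 0.759, adjusted permutation p = 0.0294). Camp then had r = 0.657 with eosinophil and mast cell genes (adjusted permutation p = 0.0546) and 0.658 with platelet genes (adjusted permutation p = 0.0573), and S100a8 had r = 0.522 with eosinophil and mast cell genes (adjusted permutation p = 0.237). BD2 was the lowest of the 17 animals for 6 of the 10 lists and BD6 the highest for 3.

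The summed levels of these lists overlapped between groups. Red cell genes summed to 4.08 to 35.9 FPKM in B, 1.26 to 22.1 in BD and at least 7.68 in V (median 8.59), and eosinophil and mast cell genes to 2.84 to 7.44, 2.93 to 9.99 and 4.17 to 8.02. Monocyte genes summed to 39.3 to 98.8 FPKM in B, 22.8 to 107 in BD and at most 90.8 in V (median 61.6). None of the measured genes in these 3 lists was at 0 in all animals, and the haemoglobin chains Hbb and Hba have no row under those symbols. The part of other cells, or of blood held in the tissue, in the members' spread was not tested.

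The wider neutrophil programme was read from 51 further genes in 7 lists by role, of which 36 had a row, 32 had all values recovered and 23 passed the filter. None was called in any comparison, and 1, 1 and 2 of the 23 had an unadjusted p under 0.05 in the order of the comparisons, beside the 5.84%, 3.65% and 4.32% of all genes given above. The median log2 fold changes of the 23 were 0.040, -0.016 and -0.00060.

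Lcn2, lipocalin 2, which binds bacterial siderophores and is made by neutrophil precursors and by airway epithelium, accounted for 2 of these 4. Its FPKM ran from 14.7 over a median of 19.6 to 23.4 in B and from 19.1 over 28.8 to 49.5 in BD, and V had a mean of 16.9 ± 4.41 (SD). The BD animals tended to lie above the others, with overlap. The log2 fold change was 0.66 (SE 0.20) in BD against B and -0.84 (SE 0.21) in V against BD, with adjusted p-values from limma of 0.806 and 0.947. Across animals Lcn2 had r = 0.111 with Camp and 0.0302 with S100a8. The others were Trem1, a receptor that amplifies myeloid activation (log2 fold change 0.57, SE 0.25, V against B, adjusted p from limma 1.00), and Padi4, the enzyme that citrullinates histones in neutrophil traps (0.61, SE 0.29, V against BD, adjusted p from limma 0.947), both named after their values were seen.

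Of the primary granule proteins, Bpi had the higher level of the 2 with a row, at a mean of 0.465 FPKM. Of the 10 receptors and adhesion molecules with all values recovered, out of 16 listed, Selplg, the ligand of P-selectin, was highest at 16.8 FPKM. Of the 4 NADPH oxidase subunits with a row Rac2, a GTPase of blood cells, was highest at 70.4 FPKM. Ncf1, the p47 subunit of that oxidase, had r = 0.598 with S100a8 and 0.611 with Camp. Of the ligands Cxcl12, which holds neutrophils in the marrow, had a mean of 69.0 FPKM, while Csf3, the ligand of Csf3r, had a mean of 0.0868 FPKM and 0.727 at most. Ncf1 and Csf3 were also chosen after their values were seen. Of the vascular adhesion molecules Icam1 had 91.0 FPKM, and of the 4 transcription factors with all values recovered Cebpb had 75.7 FPKM. Across these 7 lists no median log2 fold change is read as a result, since 0 of their genes were called.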

How the data were processed

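RNA of the lungs of 17 males was measured, with groups from the sample labels. Per the submitters' processing notes, FastQC, Trim Galore 0.4.5, STAR 2.7.2, SAMtools 1.5 and featureCounts of Subread 1.5.3 were used; the genome build is not given in the sources used here. The authors deposited FPKM per gene and animal, from strand-specific libraries, in 1 table. Its symbols match RefSeq's assembly ASM782708v3, used for gene order, names and upper limits of length.

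Depths and lengths were solved as the values that turn FPKM into whole reads. Of 27787 lengths, 26781 were settled, and 98.3% of 353714 values were whole within 0.01 reads. Reads were mostly even (82.1% of whole reads of at least 100, in values divided by a small RNA gene's length, with that length taken from RefSeq for this count), so a factor of 2 in a length was settled by that and by the medians of the 17 genes each length divides. On simulated data for bond-disrupted against bonded lungs (14587 genes tested), 99.8% of settled lengths were right. Of 50 genes each changed 2-, 3-, 4- and 6-fold, 9, 48, 50 and 46 were called. The changed genes were drawn at levels above the means of Cxcr2, Ltf, Camp and Mpo. Their simulated spread was smaller than the SDs of S100a8, Ltf, Csf3r and Camp. These shares therefore do not give the share that would be called among the 6 genes.

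FPKM with own lengths were taken as log2(FPKM + 1), with genes of at least 1 FPKM in at least 1 animal, and fitted with limma 3.58.1 in R 4.3.3, all 3 groups in 1 fit, two-sided, with Benjamini-Hochberg adjustment over all genes tested. Correlations used 100000 permutations (scipy 1.17.1, numpy 2.4.6, Python 3.11.15), whose smallest p is 1e-05. S100a9, planned for the marker lists, has no row, and S100a8 and Camp took its place. Alternatives were the deposited values, a pseudocount of 0.1, no filter, median-ratio scaling, voom, the family number as a block, only 2 groups, lengths from whole reads alone, and leaving out animals. The study's text says that numbers mark siblings or cousins: deviations from group means of same-numbered animals correlated at 0.0972 to 0.373 in the 6 B and BD pairs and under 0.1 in the 10 pairs with a virgin.

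The genes described, their lists and tests were chosen with earlier results of these data known. Genes named were the 8 members, the highest gene of each role list, any called gene and the 3 genes most like each member; Trem1, Padi4, Ncf1 and Csf3 were added after their values were seen. p-values measure the spread between animals, each with 1 library. Depth limits Mpo, Camp, Ltf and Cxcr2 most. Sequences are not shown here.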

Additional observations from a re-analysis of the deposited data

Results flagged for a closer look

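Within groups, 21 sets of values were examined for a single animal far from the rest (Dixon's test), and 5 stood out. The test gives about 1 in 20 by chance only where values are normally distributed. It was run on FPKM itself, where the SD in BD was 108% of the mean for Mpo and Ltf. For Camp it was 91.5% and for LOC128106311 71.0%. The 5 sets are therefore not compared with that rate, and whether they stand out on the log2(FPKM + 1) scale was not tested. The 4 sets in bond-disrupted lungs were led by the same animal, BD6, with 0.959 FPKM of Mpo (next 0.320), 3.27 of Ltf (next 1.16), 2.26 of Camp (next 0.937) and 54.2 of LOC128106311 (next 25.1). In the virgin lungs V2 had 1.18 FPKM of Camp (next 0.683). These genes vary together across animals, so the sets are not independent. BD6 was also the highest of the 17 animals for 3 of the 10 marker lists; the part of other cells in its values was not tested.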

How the results depend on the processing

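No member was called under any alternative, the lowest adjusted p being 0.623, and with limma the members called stayed at 0. Over all genes, the values as deposited gave 40, 113 and 35 calls in the order of the comparisons in place of 0, 0 and 0. Voom, the fit of only the 2 groups and the lengths from whole reads alone each gave 1 call in V against B, and the last also 1 in V against BD. Leaving out 1 animal gave 0 to 1 calls, with 1 in BD against B without B6, in V against B without B6, BD5, V4 or V6, and in V against BD without V4 or V6. Taking families as a block, limma called 0, 0 and 0 genes, the log2 fold change of S100a8 was -0.32 in BD against B and 0.42 in V against BD, and the block changed no call.

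Of 129 fold changes of the members under the alternatives other than leaving out 1 animal, 113 kept their direction and 16 reversed, none of them past the threshold. As deposited, S100a8 reversed to -1.43 (V against B) and -0.22 (V against BD), Csf3r to -0.30 and -0.0092, Cxcr2 to -0.27 (BD against B), 0.59 and 0.86, Ltf to 0.77 (BD against B) and -0.057 (V against BD), and Camp to 0.27, -0.30 and -0.57; this table divides by other genes' lengths. Camp in BD against B was 0.036 with a pseudocount of 0.1 and 0.24 with voom. Ltf kept its direction and grew with a pseudocount of 0.1, to 0.71 in V against B and 0.93 in V against BD. With lengths from whole reads alone, Csf3r was -0.098 and Camp -0.089 in V against B, where animals whose length was not settled were left out. S100a8 was then -0.57 in BD against B and 0.71 in V against BD.

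Leaving out 1 animal reversed 31 of 306 fold changes. The ranges were, for S100a8 -0.57 to -0.092 (BD against B), -0.16 to 0.35 (V against B) and 0.16 to 0.71 (V against BD); for Csf3r -0.22 to 0.11, -0.098 to 0.34 and 0.0089 to 0.45; for Cxcr2 -0.018 to 0.14, -0.12 to 0.026 and -0.19 to -0.044; for Mpo -0.014 to 0.20, -0.019 to 0.12 and -0.13 to 0.044; for Ltf -0.36 to 0.088, 0.092 to 0.46 and 0.22 to 0.61; and for Camp -0.20 to 0.19, -0.095 to 0.21 and -0.082 to 0.21.

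Correlations between members kept their side of the threshold in 15 of 15 pairs with a pseudocount of 0.1 and in 14 with group means subtracted, where Cxcr2 and Ltf passed it (r = 0.534, adjusted permutation p = 0.0343). Without BD2 and BD6, 7 pairs no longer passed, those of S100a8 with the other 5 and of Csf3r with Cxcr2 and Camp. At these depths Mpo rests on 0 to 106 reads, and read counts are known up to whether mates were counted singly.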
